A study of Homo sapiens with 14 samples.

Results

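Splicing of ERGIC3 and of 6 other genes of transport between the endoplasmic reticulum (ER) and the Golgi, ERGIC1, ERGIC2, LMAN1, LMAN2, SURF4 and SEC22B, was described in SF3B1-WT and SF3B1-MT cells. RNA-Seq was from HEK293T, a human embryonic kidney line, with 3 WT libraries (genotype K700K) and 3 MT libraries (genotype K700E), and the labels name no treatment for them. The lines were isogenic and the mutation was made at the endogenous locus, and the number of clones behind each genotype is not given in the sources used here. A second assay, DNA:RNA hybrid immunoprecipitation (DRIP-seq), was from Nalm-6, a leukemic B cell line, with 2 libraries for each genotype, untreated or treated with RNase H (RNH1). The 7 genes were chosen by name, and every splice event of theirs with a mean of at least 10 junction reads entered, which gave 49 of the 53 events listed for them and 49 of 94061 events in all. They are 7 of the 12516 genes with an event in the table. The lowest event inside that minimum was an alternative 3′ splice site of SURF4 with 14.0 reads, and the highest outside it was a skipped exon of SURF4 with 3.2 reads.

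The table holds splice events and no expression values, so neither the cell line nor SF3B1 itself could be checked from it. It lists 6 MT values for each event, of which 3, the 1st, 2nd and 6th, have a column of their own. These 3 are called MT 1, MT 2 and MT 3 in column order, and whether they are the samples labelled MT could not be settled. No source says that the libraries of a genotype came from separate cultures, so a p-value measures only the spread between these libraries. Over the 83581 events tested, the median of the mean junction reads was 81.7 in WT and 82.7 in MT.

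Proteins made in the ER leave it in vesicles with a COPII coat, pass through the ER-Golgi intermediate compartment and reach the Golgi, and COPI vesicles carry escaped proteins and the machinery back. Cargo receptors span the vesicle membrane and bind soluble cargo, and SNARE proteins fuse the vesicle with its target. ERGIC1, ERGIC2 and ERGIC3 are membrane proteins that cycle between the ER and the Golgi, LMAN1 and LMAN2 are lectins that bind mannose-rich glycans on cargo, SURF4 is a receptor of soluble cargo, and SEC22B is a SNARE of this step. SF3B1 is the part of the U2 small nuclear ribonucleoprotein that holds the branch point of an intron, and its hotspot mutations are known for the use of cryptic 3′ splice sites a short way upstream of the usual one.

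The 3 acceptor sites of ERGIC3 carry the largest differences among the members. They lie in front of one exon at the 3′ part of the gene (ENSG00000125991.19; GRCh38, chr20:35542038-35557634, plus strand), which ends at 35557109 and follows an exon that ends at 35556271. The exon can begin at 35556877, at 35556955 or at 35556973, which is 96, 18 and 0 bases before the most downstream site. The sequence around the 3 sites, from the hg38 reference genome, is shown with the AG that closes each intron in capitals, and it is given because each AG stands just before one of the 3 starts.
ERGIC3 chr20:35556817-35556996, plus strand: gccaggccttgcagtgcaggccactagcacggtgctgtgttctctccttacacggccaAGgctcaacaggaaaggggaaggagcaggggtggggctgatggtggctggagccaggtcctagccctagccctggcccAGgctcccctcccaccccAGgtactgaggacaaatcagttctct

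The 18 bases between the middle and the most downstream site held 14 pyrimidines (77.8%), and the 78 bases between the most upstream and the middle site held 29 (37.2%). The added stretches of 96, 78 and 18 bases are all multiples of 3, and use of the middle site therefore adds 6 codons and keeps the reading frame. In GENCODE release 44 the most upstream and the middle site each belong to 1 of 19 ERGIC3 transcripts and the most downstream site to 6. Read in the frame of the annotated coding transcripts, the added bases held 0 stop codons.

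The inclusion level is a fraction: reads of the longer form per length over reads of both forms per length. For the middle against the most downstream site it was 0.009, 0.041 and 0.033 in WT against 0.216, 0.161 and 0.182 in MT. The lowest MT library, at 0.161, was well above the highest WT library, at 0.041. The mean level was 0.0277 ± 0.0167 (SD, n = 3) in WT and 0.186 ± 0.0278 in MT, 0.159 higher in MT, at a mean of 333.1 junction reads.

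The most upstream against the middle site had the largest difference of all member events. Its level was 0.685, 0.766 and 0.867 in WT against 0.086, 0.104 and 0.172 in MT. The lowest WT library was above the highest MT library, and the level fell by 0.652, from 0.773 ± 0.0912 (SD, n = 3) to 0.121 ± 0.0454. It ranked 2nd by absolute difference among the 83581 events tested, and the middle against the most downstream site ranked 1679th. Only 41.4 junction reads on average lay behind it, a mean of 10.7 in WT and of 72.2 in MT. The MT mean is over all 6 listed values. The WT level thus rests on few reads. The longer form had 9.33 reads in WT and 13.2 in MT, and the shorter form, the junction to the middle site, 1.33 and 59.0. The level thus fell with more reads of the shorter form and without fewer of the longer form. It is not the share of transcripts that start at the most upstream site.

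The most upstream against the most downstream site had levels of 0.009, 0.036 and 0.037 in WT against 0.043, 0.036 and 0.062 in MT. The libraries overlapped, and the means differed by 0.0197. The 3 events share reads, since the same junctions enter more than one of them, and are not independent of each other.

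**Figure D1:**
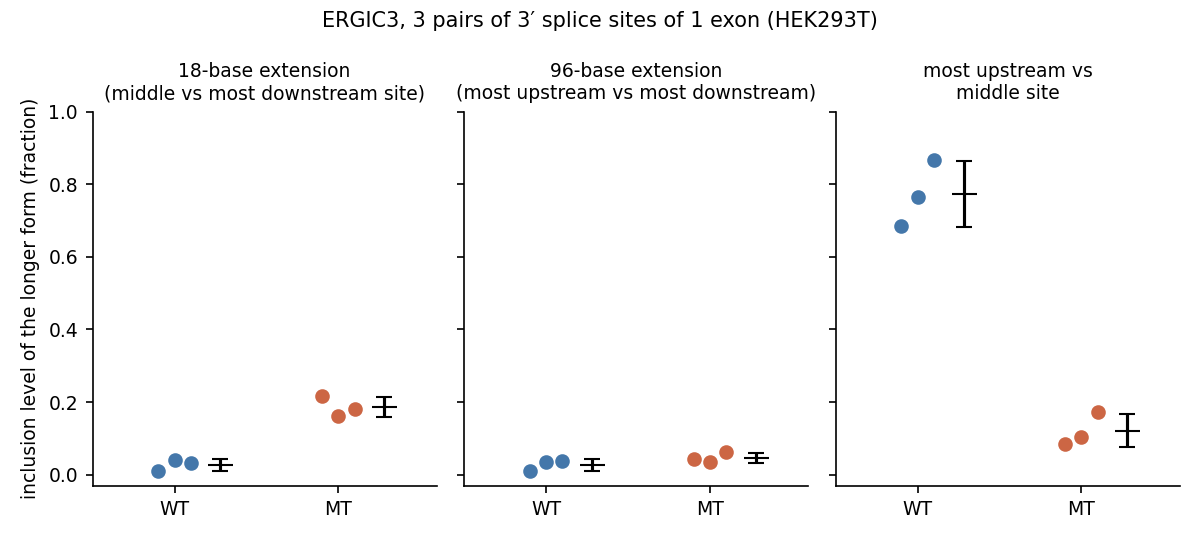
Inclusion level (fraction, vertical axis) of the 3 pairs of ERGIC3 acceptor sites in the 3 WT and 3 MT HEK293T libraries, 1 point for each library and bars for the mean ± SD (n = 3). Libraries of the 2 genotypes are apart for the most upstream against the middle site and for the middle against the most downstream site, and overlap for the most upstream against the most downstream site.

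The authors' mean junction reads separate the junctions. The junction to the middle site alone had a mean of 1.33 reads in WT and 59.0 in MT, and the junction to the most downstream site had 329.3 and 252.5. Summed over the listed values, the middle junction took 4 of 992 reads of these 2 junctions in WT, a share of 0.403% (95% exact Clopper-Pearson interval 0.110 to 1.03). In MT it took 354 of 1869 reads, a share of 18.9% (17.2 to 20.8). The MT sums are over all 6 listed values, and the intervals cover counting error only.

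The longer form of a pair counts reads across the boundary of the added bases as well as its own junction, and the shorter form counts only its junction. For the middle against the most downstream site the longer form had a mean of 10.7 reads in WT, of which the middle junction gave 1.33 and other reads 9.33. In MT it had 73.7 reads, 59.0 from the middle junction and 14.7 others. Reads across that boundary are not tied to the junction of the middle site. The inclusion level of this pair, 0.0277 in WT, is therefore not the share of the middle site. The junction reads put that share at 0.403% of the reads of both junctions. In WT the skipped-exon events of this exon had 519.3 inclusion reads with the most upstream start and 520.7 with the middle start. They differ only in the junction to the start. With 1.33 reads on the middle junction, next to none are left in WT for the junction to the most upstream site. In MT the inclusion reads were 488.3 with the most upstream start and 546.3 with the middle start. With 59.0 reads on the middle junction, few are left in MT too for the junction to the most upstream site. What the other boundary reads come from was not tested.

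**Figure D2:**
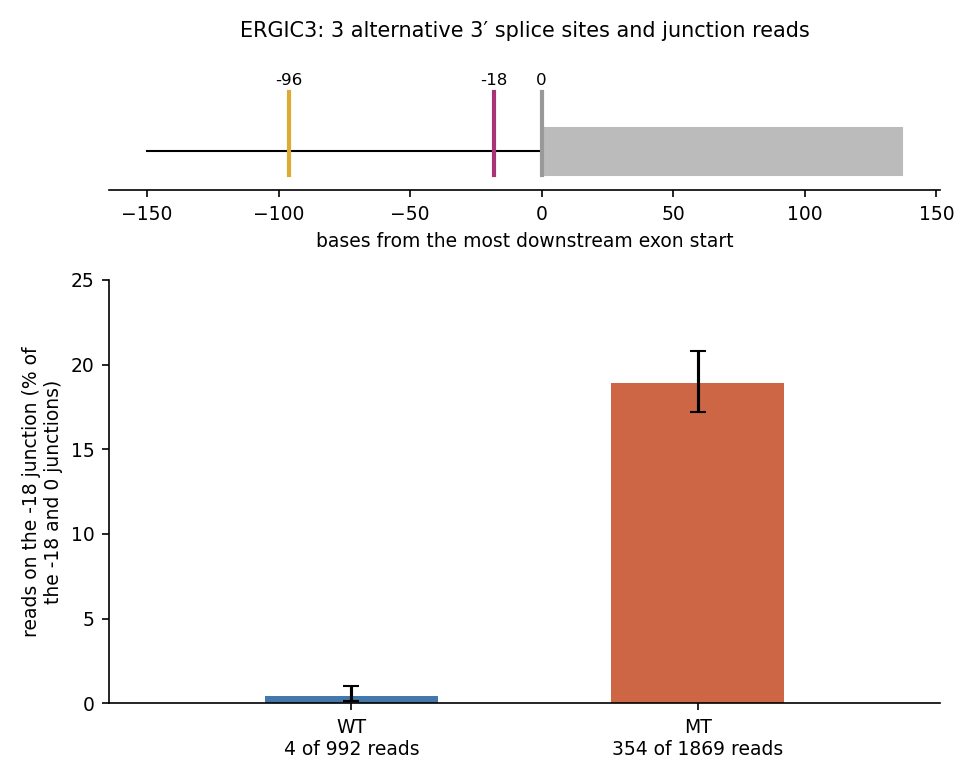
Top, the 3 ERGIC3 acceptor sites and the exon in gray, to scale, by distance from the most downstream start (bases, horizontal axis). Bottom, reads of the junction to the middle site as a percent of the reads of the junctions to the middle and most downstream sites (vertical axis), summed over the values listed for each genotype, with 95% exact intervals for counting error: 0.403% in WT and 18.9% in MT.

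ERGIC3 and its partner ERGIC2 form a complex in early secretory membranes. The 7 genes were chosen with these values known, so the values are a description, and no p-value is given for a member event. A call here is an adjusted p under 0.05 in limma (Benjamini-Hochberg over all events) with a difference above 0.1. Of the 49 member events, 1 was called higher and 1 lower in MT, both the ERGIC3 events described, where 0.0311% of all events were called, 0.0132% higher and 0.0179% lower. WT and MT libraries did not overlap in 3 of 49 member events, 6.12%, against 5.46% of all events. MT was higher in 1 of the 3, against 2.32% of all events, and lower in 2, against 3.15%. An absolute difference above 0.1 was found in 2 of 49 member events and in 5.8% of all events. With a minimum of 50 reads the most upstream against the middle site was not tested, and 1 member call was left. Without WT 3, MT 1 or MT 2 there were 0 member calls, and without WT 1 or MT 3 there was 1. With a logit transform or with no trend of the variance there were 0 calls, among the members and among all events.

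The rest of ERGIC3 differed little. Its 4th alternative 3′ splice site, with starts 36 bases apart near the 5′ end of the gene, was used for the longer form at 0.008, 0.011 and 0 in WT and, in MT, at 0.009, 0.007 and 0.002. The 10 skipped-exon events split into 7 with all levels at 0.985 or higher and 3 with all levels at 0.01 or lower. Their largest absolute difference was 0.006.

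That largest one, named after its values were seen, was the 3rd member event without overlap, the exon at chr20:35542513-35542600. Its level was 0.997 in each WT library and 0.993, 0.985 and 0.995 in MT. The exon with the most reads in ERGIC3, chr20:35556033-35556129 with a mean of 822.9 reads, had 0.998, 1 and 0.997 in WT and 0.997, 0.991 and 0.998 in MT. The exon behind the 3 acceptor sites is listed with each of its 3 starts, and all levels of these events were 0.993 or higher. The events share the skipping reads and the junction at the other end of the exon. Their inclusion reads in WT were 519.3, 520.7 and 848.7 from the most upstream to the most downstream start. Inclusion was therefore not measured for each start separately.

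Of the 35 events of the other 6 genes, 0 were called, against 0.0311% of all events, and 0 were without overlap, against 5.46%. Their differences ran from −0.038 to 0.039 with a median of −0.001 and a median absolute difference of 0.00567. Over all events tested the median difference was −0.002 and the median absolute difference 0.0137. Over the 49 member events these were −0.000667 and 0.005.

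**Figure D3:**
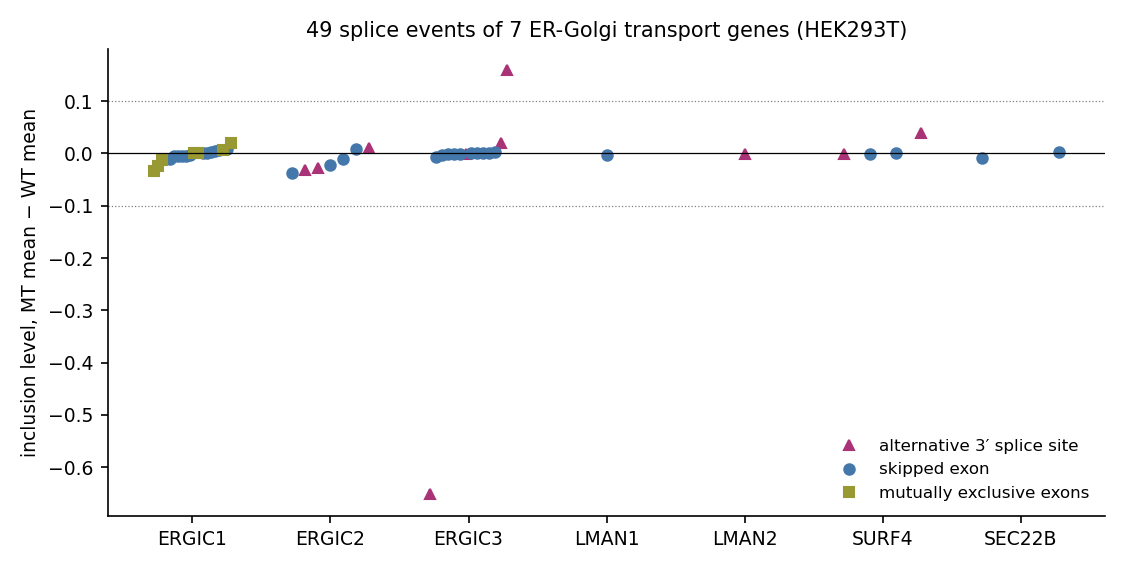
Difference in mean inclusion level, MT minus WT (vertical axis), of the 49 events of the 7 genes (horizontal axis), 1 symbol for each event by type, with dotted lines at a difference of 0.1 in each direction. The ERGIC3 symbols at −0.652 and 0.159 stand apart, and the other 47 events lie within 0.05 of 0.

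ERGIC2 (ENSG00000087502.17; chr12:29337352-29381189, minus strand) had 3 alternative 3′ splice sites and 4 skipped exons. One of these pairs of sites, 17 bases apart, has a spacing close to the 18 bases of ERGIC3, and LMAN2 (ENSG00000169223.14; chr5:177315805-177351840, minus strand), a cargo lectin of this pathway, has a pair 21 bases apart. Their sequences are set beside that of ERGIC3 because of that spacing, with the AG of both sites in capitals.
ERGIC2 chr12:29345517-29345617, minus strand: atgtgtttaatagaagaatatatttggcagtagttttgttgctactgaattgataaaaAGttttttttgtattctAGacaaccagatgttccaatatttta
LMAN2 chr5:177337741-177337845, minus strand: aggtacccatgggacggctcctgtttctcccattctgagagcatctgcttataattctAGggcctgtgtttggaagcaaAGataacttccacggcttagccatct

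The ERGIC2 pair had levels of 0.104, 0 and 0.03 in WT against 0, 0.051 and 0 in MT, with a mean of 35.7 reads, and the libraries overlapped. Its 17 added bases are not a multiple of 3. The LMAN2 pair, with a mean of 628.75 reads, had levels of 1 in each WT library and 1, 1 and 0.998 in MT. LMAN2 was thus almost wholly in the longer form, the reverse of ERGIC3 in WT. Of the alternative 3′ splice sites tested, 997 (18.6%) lay 10 to 30 bases apart, and their median difference was 0.00233.

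In the 20 bases before the AG, the ERGIC3 sites held 70% pyrimidines at the most upstream, 70% at the middle and 80% at the most downstream site, against a median of 70% over tested sites. The upstream ERGIC2 site held 45%, and 4.50% of tested upstream sites held as few or fewer. The downstream LMAN2 site held 40%, and 1.18% of tested downstream sites held as few or fewer. All sites of the 11 alternative 3′ splice site events of the members follow an AG, as do 98.7% of the upstream and 99.5% of the downstream sites of the 5351 tested.

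The other ERGIC2 pairs, 55 and 54 bases apart, had levels of 0.918 or higher in all libraries. The largest ERGIC2 difference was a skipped exon with a mean of 20.6 reads, at 1 in each WT library and 1, 0.885 and 1 in MT. The most read ERGIC2 event, a skipped exon with 126.8 reads, had 0.977, 0.983 and 1 in WT and 0.939, 0.952 and 1 in MT, and both sets overlapped.

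ERGIC1 (ENSG00000113719.15; chr5:172834251-172952792, plus strand) had 20 events. Its 7 events listed as mutually exclusive exons had intermediate levels in part, with WT means from 0.00233 to 0.529, and none differed by more than 0.0333. The one with the largest difference, with 274.8 reads, had 0.342, 0.392 and 0.363 in WT and 0.311, 0.344 and 0.342 in MT, which overlapped by a narrow margin. Its most read event, the exon at chr5:172932436-172932536, had 1, 0.995 and 1 in WT and 1, 1 and 0.995 in MT. The mutually exclusive event with the largest difference holds this exon too. Of the 12 skipped-exon events of ERGIC1, 11 had all levels at 0.959 or higher. The intermediate levels are thus not the shares of transcripts that hold an exon. The alternative 3′ splice site of ERGIC1, 149 bases apart, had 0.021, 0.007 and 0.028 in WT and 0.007, 0.01 and 0.005 in MT.

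LMAN1, which carries clotting factors among its cargo (ENSG00000074695.5; chr18:59327823-59359265, minus strand), had a single event, the exon at chr18:59338760-59338953. Its level was 1, 0.995 and 1 in WT against 1, 0.987 and 1 in MT. Its mean junction reads were 422.0 in WT and 207.7 in MT, a ratio of 0.492. Over the 35841 tested events with at least 100 WT reads, the median of this ratio was 0.981, with 5% of events under 0.740. These are the authors' means, not normalized for depth and without a spread, and the ratio has no test. The ratios of the most read events of the other 6 genes ran from 0.784 in LMAN2 to 1.13 in SEC22B.

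SURF4 (ENSG00000148248.13; chr9:133361450-133376166, minus strand) had 2 skipped exons and 1 pair of acceptor sites, 98 bases apart, listed with 2 upstream exons. With 14.0 reads the pair had 1, 0.786 and 0.846 in WT and 0.75, 1 and 1 in MT, and with 179.4 reads and the other upstream exon it had 0.033, 0.061 and 0.053 in WT and 0.034, 0.076 and 0.034 in MT. The libraries overlapped in both. Its most read event, the exon at chr9:133364840-133365026, was at 0.995 or 1 in each library.

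SEC22B (ENSG00000265808.3; chr1:120150898-120176520, minus strand) had 2 skipped exons. The exon at chr1:120168840-120168949 had 0.989, 0.976 and 0.976 in WT and 0.989, 0.946 and 0.982 in MT, and the exon at chr1:120160384-120160530 was at 0.993 or 1 in each library. Pseudogene copies of SEC22B are annotated, and how reads shared with them were counted is not given in the sources used here.

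Another 94 genes of the pathway were set beside the members, of which 87 had a tested event. Among their 825 events, 0 were called higher in MT and 2 lower, and WT and MT did not overlap in 47, 5.70%. Over all events tested 0.0311% were called and 5.46% were without overlap. The COPII coat and ER exit site genes had 0 calls among 185 events, the COPI coat and ARF cycle genes 0 among 201, the cargo receptors and adaptors 0 among 67 and the SNAREs with their partners 0 among 111. The tethers and RAB GTPases had both calls, among 261 events.

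Both calls were in GORASP1, which tethers Golgi membranes (ENSG00000114745.13; chromosome 3, minus strand). The alternative 3′ splice site had a level of 1 in each WT library and 0.882, 0.754 and 0.655 in MT (difference −0.236, limma adjusted p = 0.0221). The exon at chr3:39100747-39100877 was at 1 in each WT library and at 0.789, 0.556 and 0.524 in MT (difference −0.377, limma adjusted p = 0.0411), with only 22.75 reads. An alternative 5′ splice site of the same region fell by 0.442 without passing the test (limma adjusted p = 0.162). The 3 events share junctions, and 0 of the calls were left when any single library was left out, with a logit transform or with no trend of the variance.

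In the other lists the largest differences without overlap were not called. SEC16A, which organizes ER exit sites, had a skipped exon at 0.765, 0.785 and 1 in WT and 0.721, 0.47 and 0.663 in MT. ARFGAP2, which acts on the GTPase of the COPI coat, had an alternative 3′ splice site at 0.271, 0.241 and 0.69 in WT and 0.712, 0.716 and 0.803 in MT, on 17.1 reads. TMED5, a cargo adaptor, had mutually exclusive exons at 0.314, 0.324 and 0.31 in WT and 0.33, 0.406 and 0.403 in MT. SEC22C, a relative of SEC22B, had mutually exclusive exons at 0.125, 0.154 and 0.043 in WT and 0.25, 0.2 and 0.25 in MT. The limma adjusted p was 0.856 for each of these 4.

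**Figure D4:**
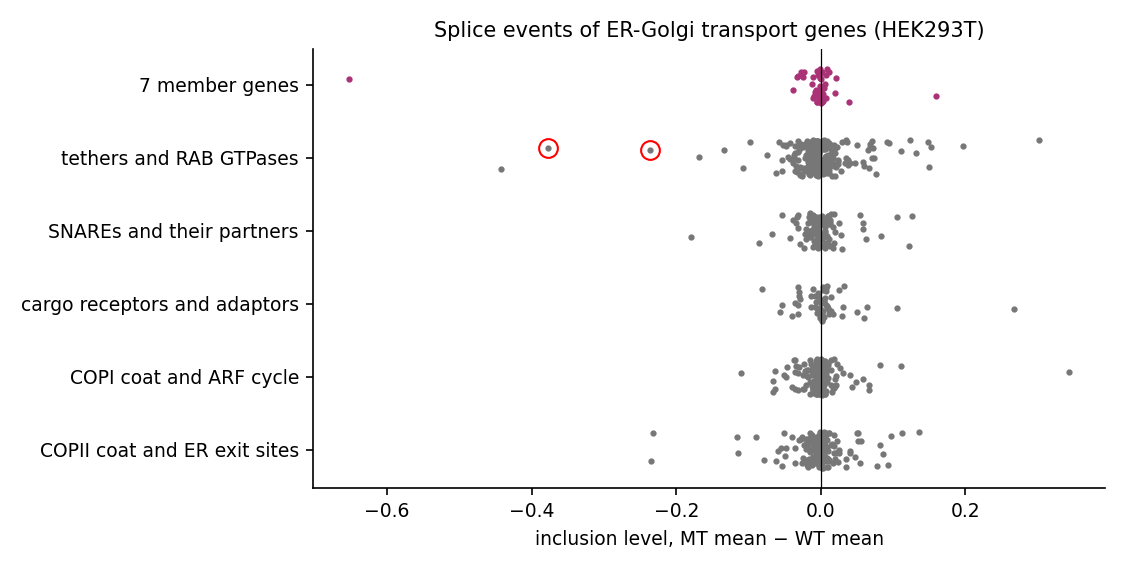
Difference in mean inclusion level, MT minus WT (horizontal axis), of the events of 5 lists of ER-Golgi transport genes and of the 7 member genes, 1 point for each event, with called events of the lists circled. The 2 circled points are GORASP1, at −0.236 and −0.377.

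The events most like the most upstream against the middle site of ERGIC3 were sought among 56139 events with at least 50 reads, by the root mean square difference of centred levels over the 6 libraries. The nearest were in CRNDE (0.0481), RPRD1A (0.119), COASY (0.135), MID1 (0.141) and ANKHD1 (0.151). The CRNDE event, an alternative 3′ splice site of a long noncoding RNA, had levels of 0.836, 0.829 and 0.93 in WT against 0.219, 0.202 and 0.179 in MT. The events nearest to the middle against the most downstream site, a reference chosen after its values were seen, were in ZNF410 (0.0223), PLD3 (0.0231), CALU (0.025), PPP6R3 (0.0264) and MTRF1L (0.0271). Likeness over 6 libraries of 2 groups is a description of these levels.

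In Nalm-6, DRIP-seq peaks mark DNA recovered with an antibody to RNA paired with DNA. Many peaks were also called in RNH1-treated libraries, and the paper takes as bona fide only peaks called over such libraries. The untreated WT libraries had 6 and 7 peaks over the 7 genes, of 123720 and 131096 in all, and the untreated MT libraries 15 and 19, of 254170 and 296533. Per 100000 peaks these are 4.85 and 5.34 in WT and 5.90 and 6.41 in MT. MT exceeded WT by a log2 ratio of 0.27 (n = 2 in each group), and the square root of the summed variances of both groups was 0.13. The two-sided exact permutation p was 0.333, the smallest that 2 against 2 libraries can give. The log2 ratio was 0.07 after RNH1 subtraction, which drops untreated peaks also called with RNH1 (two-sided exact permutation p = 0.667). Per 100000 peaks left, the 7 genes then had 4.93 and 4.64 in WT and 4.81 and 5.27 in MT, which overlap. An excess in MT was thus not seen among the peaks left. The log2 ratio was 1.77 with peaks of at least 4-fold enrichment only and −0.023 with 3000 bases added to each side of the genes. The value of 1.77 rests on few member peaks, 3 and 1 in the WT libraries and 10 and 14 in the MT libraries.

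With RNH1, which digests the hybrids, the libraries had 3 and 4 peaks over the genes in WT, of 34952 and 77550 in all, and 13 and 14 in MT, of 201804 and 198837. Per 100000 peaks these are 8.58 and 5.16 in WT and 6.44 and 7.04 in MT, which overlap. ERGIC2 had 3 and 3 peaks in untreated WT and 6 and 8 in untreated MT, ERGIC3 had 0 and 1 against 1 and 1, and SURF4 had 0 in all 8 libraries. Within 1000 bases of the 3 ERGIC3 acceptor sites a peak was present only in the library of RNH1-treated WT replicate 1, at 3.82-fold enrichment.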

How the data were processed

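HEK293T RNA-Seq (stranded KAPA libraries) and Nalm-6 DRIP-seq were grouped by the genotype and treatment in their labels. The authors' inclusion level is a fraction with 3 decimals from a model after rMATS, deposited with mean junction reads of each group. The submitters' processing notes name STAR, StringTie, BWA and GRCh38, and versions are not given in the sources used here. The authors deposited, for each DRIP-seq library by itself, peak lists with fold enrichment over the local background, a ratio, and −log10 p and q values, which were not used beyond the lists as called. The table's own p-values, adjusted p-values, differences and calls were not used. Another 3 MT values listed per event without a column were not used as libraries, but the authors' MT mean reads include them and enter the read minimum and the trend.

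Of 114349 events, 94061 had a mean of at least 10 reads, and 83581 also had a level in all 6 libraries that was not the same throughout. A count test as in rMATS had been planned; because counts are not matched to samples, limma 3.58.1 (R 4.3.3) was used after an arcsine square root transform of the inclusion levels, letting the variance follow log mean reads, with Benjamini-Hochberg adjustment. The comparison was tested on simulated data. Peaks were overlapped with GENCODE release 44 genes by at least 1 base and compared by exact permutation.

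The 7 genes, the pathway lists and the tests were chosen with earlier results of these data known. For each gene the event with the largest difference and that with the most reads are named, with all events of the ERGIC3 acceptor region; for the pathway lists, each called event and the largest without overlap; and the 5 genes most like ERGIC3. Alternatives were a logit transform, no trend, other read minimums, leaving out each library, RNH1 subtraction, another peak minimum and flanks.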

Additional observations from a re-analysis of the deposited data

How the results depend on the processing

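The calls depended on the model. Of 26 calls over all events, 0 were left with a logit transform (2904 events at an unadjusted p under 0.05 in limma), 0 with no trend of the variance (3200) and 17 with a minimum of 50 reads, and 3 to 13 with a library left out. Of the 2 member calls, 0 were left with the logit, 0 with no trend, 1 with the minimum of 50 reads, and 0 to 2 with a library left out. Of the 2 calls in the other transport genes, 0 were left with the logit (31 at an unadjusted p under 0.05), 0 with no trend (28), 1 with the minimum of 50 reads and 0 with each library left out (21 to 51). With no minimum of reads the counts were 22, 2 and 2. The ERGIC3 differences kept their direction: the most upstream against the middle site ran from −0.696 to −0.605 and the middle against the most downstream site from 0.144 to 0.171 with a library left out. Medians in place of means, chosen for the latter after seeing the data, gave −0.662 and 0.149.

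The log2 ratio of member DRIP-seq peaks was 0.20 to 0.34 with a library left out and 0.07 after RNH1 subtraction. At a minimum of 4-fold it was 1.77, with only 3 and 1 member peaks in the WT libraries. It reversed to −0.023 with flanks of 3000 bases. A replicate block, chosen after seeing the data, gave 0.27 (exact p = 0.5). No paired analysis was possible because, in the HEK293T table, the numbers of the MT columns are not tied to samples. The cause of these changes was not tested, except that the most upstream against the middle site, with 41.4 reads, lies under the minimum of 50. Depth limits the rare ERGIC3 junction in WT, which rests on 4 reads.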
